A study of Mus musculus with 4 samples.

Results

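Chemokines are small secreted proteins that bind chemokine receptors and direct the movement of leukocytes, and they are the subject here in mouse microvascular smooth muscle cells. The 10 genes Cxcl10, Ccl5, Ccl2, Ccl7, Ccl20, Cxcl1, Cxcl5, Cxcl12, Cxcl16 and Cx3cl1 were chosen by name, and every non-control probe was used whose accession a RefSeq table assigns to one of them. All 10 were on the arrays, with 13 probes, among 18217 genes that could be named. Of the 10, 8 passed the filter on dim probes and were tested, with 10 probes, among 12388 genes tested in all.

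The cells came from male C57BL6 mice and are described in the labels as derived from a Rap1a knockout, a deletion that both groups share. The Rap1a protein, a GTPase related to Ras, is known for a role in cell adhesion. One group was transduced with an empty Shuttle vector and the other with a Shuttle vector called RapCA, an abbreviation left unexplained in the labels, and the series title speaks of knockout and rescue. Cells were grown in 10% serum, received virus overnight without serum at plating, and then had 48 h in 0.5% serum. The labels give neither the age of the animals, nor whether cells were pooled, nor what drives the RapCA insert. Each of 4 arrays held 1 RNA of each kind, with the empty vector in Cy5 and RapCA in Cy3. The arrays are numbered as 4 biological replicates, with no mention of separate cultures or animals, so the p-values measure the spread between these arrays, which may be technical. The dyes were exchanged on no array, so dye and condition cannot be told apart, and the groups are called the channel labelled RapCA and the channel labelled vector.

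Directions follow those dye labels, and the Rap1a probe had less signal under the RapCA label. Its signals above local background were 2791, 10574, 13880 and 10736 scanner units in the channel labelled vector on replicates 1 to 4. In the channel labelled RapCA they were 2575, 2966, 2684 and 2288 units. Although the cells are described as coming from a Rap1a knockout, this probe was detected under either label on each of the 4 arrays. Its log2 ratio, taken as the RapCA label divided by the vector label, was -1.06 ± 0.44 (SD, n = 4; limma adjusted p = 0.00204). Where the probe lies relative to the deletion or the insert is not known here, so it cannot show whether the labels are the right way round. All ratios below are likewise the RapCA label divided by the vector label, so a negative value means less signal in the channel labelled RapCA. On replicate 1 the channel labelled vector was dimmer, with 51.3% of probes well above background against 60.1% to 61.9% on the others. Over the probes tested, the ratios of replicate 1 had a correlation of 0.69 to 0.78 with each further array, while replicates 2 to 4 had at least 0.93 among themselves; all share 1 slide. No spot was saturated, and the median signal above local background was 35.5 to 43 scanner units in the channel labelled RapCA and 37 to 83.5 in the channel labelled vector. Relative to this, signals of the members ran from below background to above 60000 units.

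Chemokines are named by the spacing of their first cysteines (CC, CXC, CX3C), and by use they fall into inflammatory and homeostatic kinds. Cxcl10 and Ccl5 are switched on by interferon regulatory factors after viral nucleic acid or interferon, with help from NF-kB. Ccl2, Ccl7, Ccl20, Cxcl1 and Cxcl5 are classical targets of NF-kB, the factor activated by tumour necrosis factor, interleukin-1 and Toll-like receptors, and vascular smooth muscle is a known source of Ccl2. Cxcl12 is made constitutively by stromal cells, and Cxcl16 and Cx3cl1 are made as membrane-anchored proteins that proteases can shed. The members are ordered below by these kinds.

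Promoter sequences from RefSeq (build GRCm38.p6; 250 bases before to 50 bases after the annotated start, each written 5′ to 3′ along its gene) were held for 5 of the 10 members, namely Cxcl10, Ccl20, Cxcl1, Cxcl12 and Cx3cl1. Those of Cxcl10, Cxcl1 and Cxcl12 are shown because each stands for 1 kind. Capitals mark matches to the interferon-stimulated response element, searched as GAAA, any 2 bases and GAAA, and to the NF-kB consensus. Both strands were searched, and TATAAA was searched as well.
Cxcl10, chr5:92348840-92349139, minus strand: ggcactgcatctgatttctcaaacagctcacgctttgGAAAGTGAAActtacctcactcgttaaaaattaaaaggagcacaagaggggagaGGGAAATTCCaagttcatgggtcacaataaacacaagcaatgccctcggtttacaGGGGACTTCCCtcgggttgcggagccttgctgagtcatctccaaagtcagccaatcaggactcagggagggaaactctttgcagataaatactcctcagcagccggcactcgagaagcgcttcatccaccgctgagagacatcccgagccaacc
Cxcl1, chr5:90890995-90891294, plus strand: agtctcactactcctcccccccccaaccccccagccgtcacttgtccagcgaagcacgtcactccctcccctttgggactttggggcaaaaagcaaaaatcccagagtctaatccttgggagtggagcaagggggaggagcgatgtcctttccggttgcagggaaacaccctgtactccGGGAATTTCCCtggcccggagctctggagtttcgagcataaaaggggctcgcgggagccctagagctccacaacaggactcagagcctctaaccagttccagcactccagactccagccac
Cxcl12, chr6:117168285-117168584, plus strand: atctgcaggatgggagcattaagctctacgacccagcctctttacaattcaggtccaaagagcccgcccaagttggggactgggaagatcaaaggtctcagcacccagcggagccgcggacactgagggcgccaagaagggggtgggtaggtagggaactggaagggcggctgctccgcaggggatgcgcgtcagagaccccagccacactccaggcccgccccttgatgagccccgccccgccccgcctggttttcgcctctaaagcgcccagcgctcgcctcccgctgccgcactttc

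The Cxcl10 window held 1 match to the interferon element, from 213 to 204 bases before the start. It also held 2 stretches with NF-kB matches, at 159 to 150 and 104 to 94 bases before the start, the second of them matched by overlapping words on both strands. The Cxcl1 window held 1 NF-kB stretch, 71 to 61 bases before the start, also matched on both strands. The Ccl20 window held 1 NF-kB match, 80 to 71 bases before the start. Neither element was in the Cxcl12 window or in that of Cx3cl1, which held TATAAA at 6 to 1 bases before the annotated start, the only match to that word in the 5 windows. Of all 32851 promoter windows of this length, 3.44% held the interferon element, 8.46% the NF-kB consensus and 13.6% TATAAA. A match describes letters and shows no binding.

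**Figure D1:**
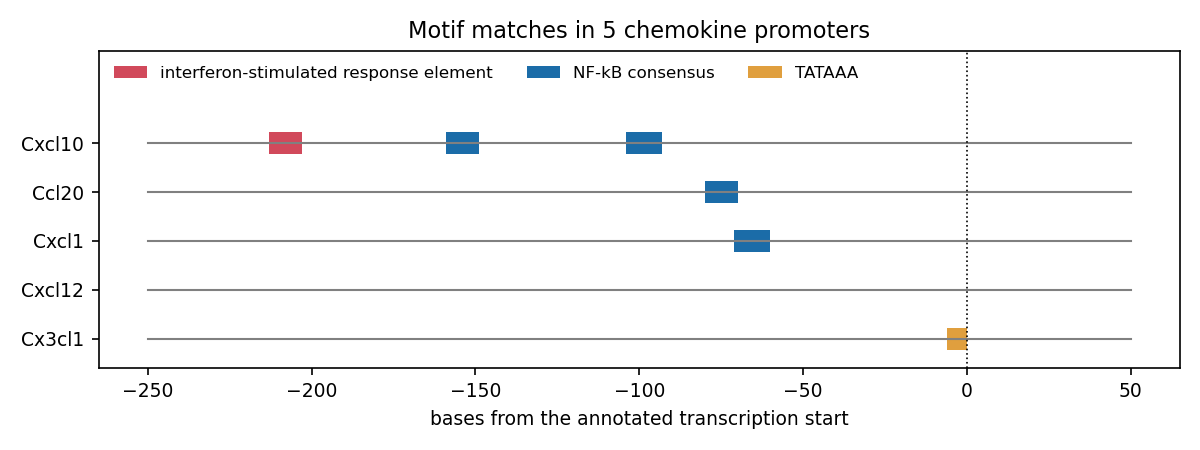
Map of motif matches in the 5 chemokine promoter windows, with distance from the annotated transcription start in bases on the horizontal axis and 1 row for each gene. Coloured blocks are matches on either strand, overlapping matches merged. The Cxcl10 row holds 1 interferon element and 2 NF-kB stretches, Ccl20 and Cxcl1 hold 1 NF-kB stretch each, and the Cxcl12 row holds no block.

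The chemokines moved in both directions and by very different amounts. Taking for each gene its brightest probe, 5 of the 8 tested had a lower level under the RapCA label (Cxcl10, Ccl5, Ccl2, Ccl20 and Cxcl1), 2 were higher (Ccl7 and Cx3cl1) and 1 was not called (Cxcl12), at a limma adjusted p under 0.05. Among all genes tested 24.9% were called lower and 28.9% higher, together 53.9%. The median log2 ratio was -4.73 over the 2 interferon-type genes, -0.42 over the 4 NF-kB-type genes tested and 0.21 over the 2 constitutive or membrane-bound genes tested, against 0.02 over all genes tested. Genes called and at least 2-fold lower made up 7.47% of all genes tested, and among the members these were Cxcl10 and Ccl5. No member was called and at least 2-fold higher, the highest being 0.66, against 9.16% of all genes. With the labels exchanged, lower and higher would change places in these counts and shares. Over single probes, 5 of the 10 tested were called lower and 4 higher (both Ccl7 probes, 1 of Cxcl12 and Cx3cl1), against 23.2% and 26.4% of all probes, together 49.6%. The share called either way among the members is above that of all genes, but with 8 genes chosen by name no test of it was made.

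The main ratios were corrected along signal intensity on each array (loess). With plain median centring of each array in its place, 3 members were called lower (Cxcl10, Ccl5 and Ccl2) and 0 higher by limma. Among all genes 20.0% were lower and 12.4% higher with median centring, and their median moved to -0.17. At an unadjusted p under 0.05 there were 5 members lower and 1 higher (Cx3cl1). The scanner software's own ratios gave 5 members lower and 2 higher after adjustment, with 23.8% of all genes lower, 26.9% higher and a median of 0.02. Without replicate 1, 6 members were lower, Cxcl12 included, and 2 higher, with 34.0% of all genes lower and 37.1% higher.

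**Figure D2:**
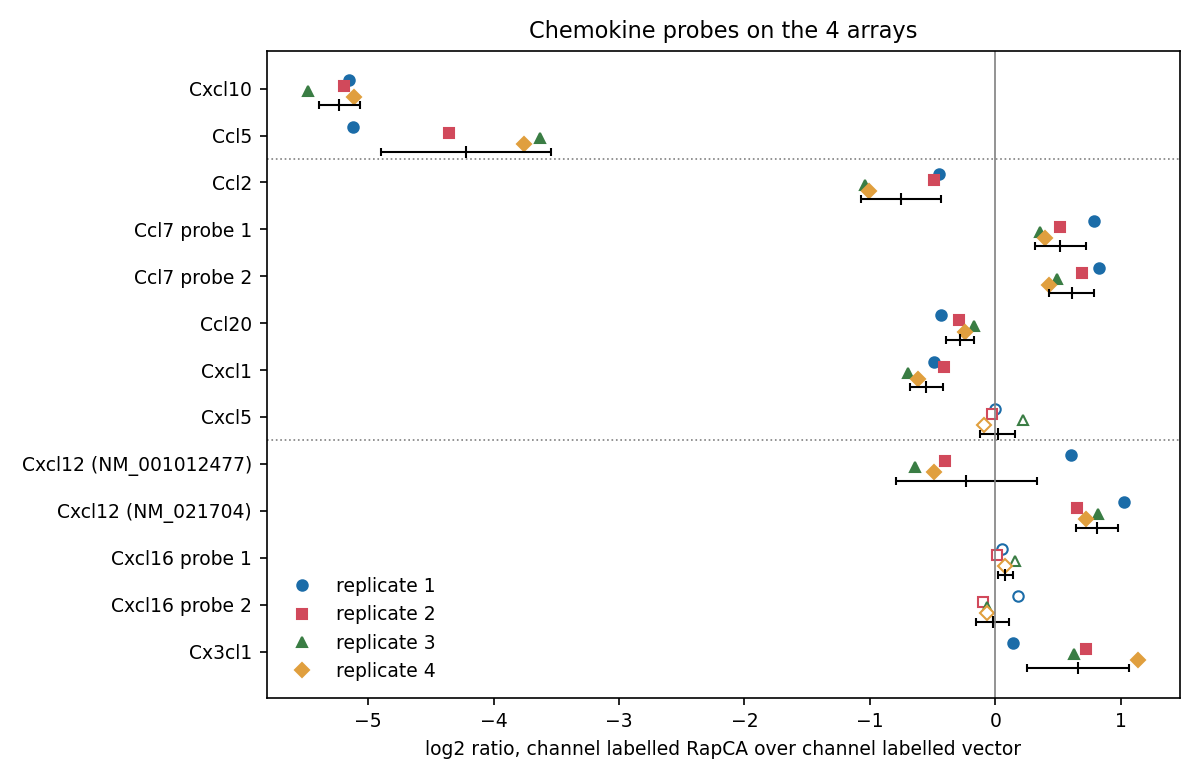
Log2 ratio, RapCA label over vector label, for each of the 13 chemokine probes (vertical axis) on each array, with a coloured symbol for each replicate. Open symbols are probes that were too dim to be tested, black bars are mean ± SD over the 4 arrays, and dotted lines separate the 3 kinds. Cxcl10 and Ccl5 lie between -5.48 and -3.63, and every other probe lies between -1.04 and 1.14.

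Cxcl10, which attracts T cells and natural killer cells through Cxcr3, had signals above local background of 17368, 35214, 38674 and 33262 units in the channel labelled vector on replicates 1 to 4. In the channel labelled RapCA they were 548, 506, 372 and 521 units. The channels did not overlap, and the gene was well above background in both on all 4 arrays. After normalization the ratios were -5.15, -5.19, -5.48 and -5.11, a mean of -5.23 ± 0.16 (SD, n = 4; limma adjusted p = 4.25e-06). That is 37.7-fold less in the channel labelled RapCA, and only 3 of 23497 probes tested had a lower ratio, which puts Cxcl10 at rank 4 from the bottom. Since the Rap1a probe cannot show whether the labels are the right way round, the direction rests on them alone. With the labels exchanged Cxcl10 would be at rank 4 from the top. Its adjusted p ran up to 0.00109 over 17 alternatives, and the ratio stayed between -5.49 and -5.15.

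Ccl5, also called RANTES, attracts T cells and monocytes. Its signals were 19510, 20683, 14564 and 13191 units in the channel labelled vector and 626, 539, 536 and 537 in the channel labelled RapCA. On each array the raw signal was again lower in the channel labelled RapCA. The ratios were -5.12, -4.36, -3.63 and -3.76, a mean of -4.22 ± 0.68 (SD, n = 4; limma adjusted p = 3.66e-05), or 18.6-fold less, at rank 16 from the bottom of all probes tested. The arrays differed more for Ccl5 than for Cxcl10. In the channel labelled RapCA the normalized log2 level of Ccl5 was 9.53 ± 0.12, and in the channel labelled vector it was 13.74 ± 0.70, so the larger spread was in the latter. The ratio of Cxcl10 minus that of Ccl5 was -0.03 on replicate 1 and -0.83, -1.85 and -1.36 on the others (exact two-sided permutation of signs, p = 0.125). Without replicate 1 the mean ratio of Ccl5 was -3.92 (adjusted p = 9.14e-06; over all alternatives 4.31e-12 to 0.00104).

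Leukocytes also make Ccl5, and some of their markers were detected and others were not. Of 8 leukocyte and macrophage markers on the arrays, 4 (Ptprc, Adgre1, Itgam and Tyrobp) were above background on no array in either channel. Cd14 and Fcer1g were above background on all arrays in both, with 223 to 353 and 86.5 to 124 units in the channel labelled RapCA and 242 to 494 and 70 to 182 in the channel labelled vector. The summed signal of the 8 was 367 to 548 units in the channel labelled RapCA and 403 to 743 in the channel labelled vector. Of 4 tested markers 1 was called higher, Lyz2, and 3 were not called. Lyz2 had 15.5 to 32 units under the RapCA label and 4 to 16.5 under the vector label, where no array was above background. It passed the filter only through the RapCA label, so its call is no support for a rise. Among 6 markers of T and natural killer cells, 1 was tested (Cd3e, 57 to 88 units under the RapCA label and 82 to 109 under the vector label) and was not called, and Cd3d, Cd8a and Klrb1c were above background on no array. Their part in the Ccl5 ratio was not tested. In bulk RNA, fewer cells of a type and less RNA per cell cannot be told apart.

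Ccl2, the chief attractant of monocytes through Ccr2, was lower by a smaller amount. It is the only member printed several times on the array, as 10 spots. The mean signals over those spots were 8214, 20797, 22329 and 17792 units in the channel labelled vector and 6582, 7971, 5039 and 5104 in the channel labelled RapCA. The ratios were -0.45, -0.49, -1.04 and -1.01, a mean of -0.75 ± 0.32 (SD, n = 4; limma adjusted p = 0.00395), or 1.68-fold less. Replicates 3 and 4 showed the larger difference and replicates 1 and 2 the smaller. The SD over the 10 spots within an array was 0.02 to 0.05, so the spread of 0.32 between arrays is larger than the error of reading a spot. Single spots spanned -0.53 to -0.35 on replicate 1 and -1.08 to -1.01 on replicate 3. Ccl2 was called lower under all 17 alternatives, at ratios of -1.11 to -0.65 and adjusted p-values up to 0.0339.

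Ccl7, which also attracts monocytes through Ccr2, went the other way. In RefSeq it is the next protein-coding gene after Ccl2 on chromosome 11, with 0 coding genes between them. It was measured with 2 probes, whose ratios were 0.79, 0.52, 0.36 and 0.40 for the brighter and 0.83, 0.69, 0.49 and 0.43 for the other. The means were 0.52 ± 0.20 (limma adjusted p = 0.00761) and 0.61 ± 0.18 (adjusted p = 0.00344), each with SD over 4 arrays. The 2 probes differed by 0.18 at most on any array. Before normalization the brighter probe read 2304, 7391, 7132 and 6015 units in the channel labelled vector and 4985, 6049, 4450 and 4753 in the channel labelled RapCA. Those raw signals were higher in the channel labelled RapCA on replicate 1 only, so on the other arrays the ratio is positive only after normalization, which allows for the brighter Cy5 channel. With median centring neither probe passed, at 0.24 and 0.37 (adjusted p = 0.522 and 0.319). The lowest adjusted p-values over the alternatives were 4.59e-05 and 3.92e-06.

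The neighbours were also compared within each array. The ratio of Ccl2 minus that of Ccl7 was -1.24, -1.01, -1.39 and -1.41, a mean of -1.26 ± 0.19, below 0 on all 4 arrays. An exact two-sided permutation of signs gave p = 0.125, the smallest that 4 arrays allow (0.161 adjusted over the 9 differences computed between chemokine probes). With median centring the mean ratios were -1.11 for Ccl2 and 0.24 for Ccl7. Ccl2 and Cxcl1 differed less, by -0.19 ± 0.21, with both signs among the arrays (exact permutation p = 0.25, adjusted 0.25).

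Cxcl1, which attracts neutrophils through Cxcr2, was lower in the channel labelled RapCA. Its signals were 309, 590, 736 and 643 units in the channel labelled vector and 315, 256, 211 and 227 in the channel labelled RapCA. Its ratios were -0.49, -0.41, -0.70 and -0.62, a mean of -0.55 ± 0.13 (SD, n = 4; limma adjusted p = 0.00363), or 1.47-fold less. The normalized ratio was below 0 on every array, although the raw signals of replicate 1 were nearly equal. With median centring the ratio was -0.69 and did not pass (adjusted p = 0.0803, against 5.5e-06 at the lowest over the alternatives). The ratio of Cxcl10 minus that of Cxcl1 was -4.66, -4.79, -4.78 and -4.49 on the 4 arrays (exact permutation p = 0.125, adjusted 0.161). Cxcl10 and Cxcl1 both hold NF-kB stretches in the windows shown above, and the part of any promoter element in these ratios was not tested.

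Ccl20, which attracts dendritic cells and lymphocytes through Ccr6, was close to background. Its signals were 49.5, 88, 63 and 67 units in the channel labelled vector and 24.5, 29, 19 and 24 in the channel labelled RapCA. The ratios were -0.43, -0.29, -0.17 and -0.24, a mean of -0.28 ± 0.11 (SD, n = 4; limma adjusted p = 0.0486). All were below 0, but the call is marginal. With the scanner software's own ratio, which adds no offset to dim signals, the mean was -0.89 (adjusted p = 0.0206). The call was lost without replicate 2, 3 or 4, at ratios of -0.28, -0.32 and -0.30 (adjusted p = 0.201, 0.145 and 0.0959), with both channels required above background (-0.28, adjusted p = 0.0591) and with median centring (-0.35, adjusted p = 0.0587). The lowest adjusted p over the alternatives was 0.00578.

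Cxcl5, a further neutrophil attractant of the Cxcr2 group, was well above background on no array in either channel. Its signals ran from -6 to 12 units around the local background in the channel labelled vector and from -1 to 7 in the channel labelled RapCA. No fold is given for it. Cxcl1 and Cxcl5 lie on chromosome 5 with 4 coding genes between them in RefSeq, all chemokine genes (Ppbp, Pf4, Cxcl3 and Cxcl15).

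**Figure D3:**
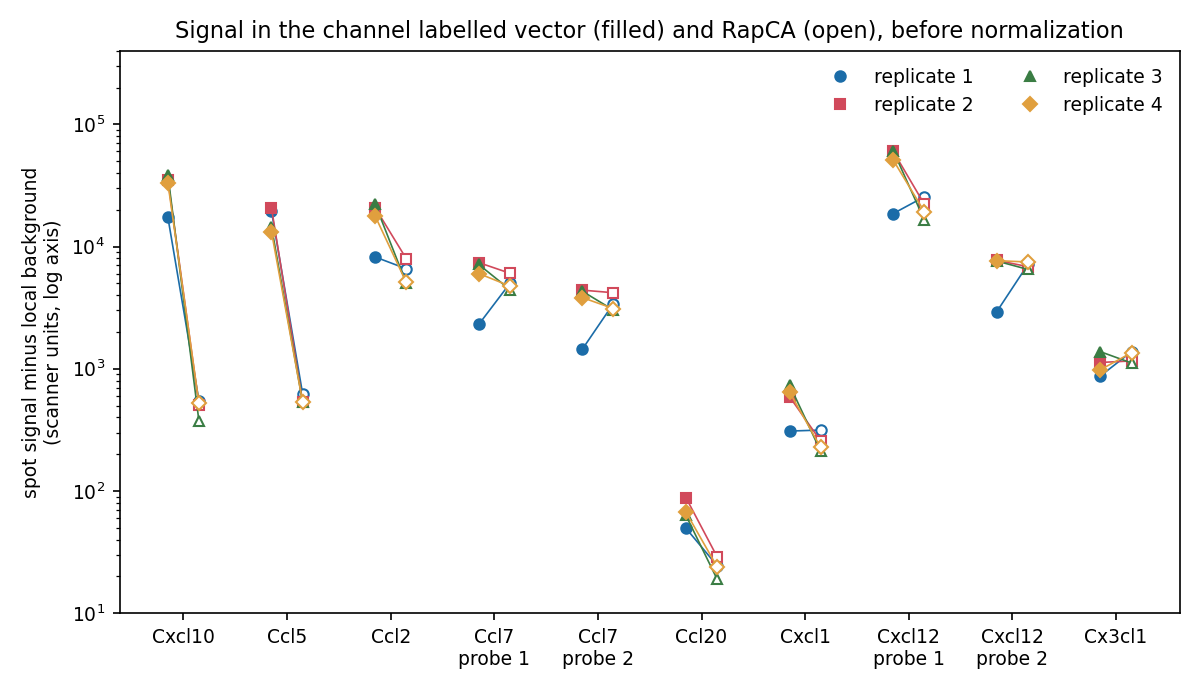
Spot signal minus local background in scanner units (log axis) for the 10 tested chemokine probes, in the channel labelled vector (filled) and the channel labelled RapCA (open), before normalization, with lines joining the channels of 1 array. Cxcl10 falls from 17368 to 38674 units down to 372 to 548 units, while on replicate 1 the lines of both Ccl7 probes, both Cxcl12 probes, Cxcl1 (slightly) and Cx3cl1 rise, the last also on replicates 2 and 4. Heights of different probes are not comparable.

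Cxcl12, the stromal ligand of Cxcr4, was measured with 2 probes that disagreed. The brighter, designed on accession NM_001012477, had signals of 18616, 60000, 60861 and 50965 units in the channel labelled vector and 25528, 22210, 16513 and 19308 in the channel labelled RapCA. Its ratios were 0.60, -0.40, -0.64 and -0.49, so replicate 1 had the opposite sign to the others. The mean of -0.23 ± 0.56 (SD, n = 4) was not called (limma adjusted p = 0.380). Without replicate 1 it was -0.51 and was called lower (adjusted p = 0.00148), as it was with array quality weights (-0.51, adjusted p = 5.8e-05), while the alternatives as a whole spanned -0.77 to -0.10, with adjusted p-values up to 0.784.

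The other Cxcl12 probe, designed on NM_021704, had signals of 2938, 7703, 7607 and 7664 units in the channel labelled vector and 7144, 6844, 6496 and 7474 in the channel labelled RapCA. Its ratios were 1.03, 0.65, 0.82 and 0.72, a mean of 0.81 ± 0.17 (SD, n = 4; limma adjusted p = 0.000887). It was called higher under every alternative except median centring (0.50, adjusted p = 0.170, against 1.61e-07 at the lowest). The first probe's ratio minus the second's was -0.43, -1.05, -1.47 and -1.21, below 0 on each array (exact two-sided permutation of signs, p = 0.125, adjusted 0.161). Both accessions are transcripts of the 1 Cxcl12 gene in RefSeq. Which transcripts each probe binds is not known here, so no direction is given for the gene as a whole.

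Cx3cl1, or fractalkine, is a membrane-anchored ligand of Cx3cr1 that can also be shed. It was higher in the channel labelled RapCA. Its signals were 874, 1126, 1378 and 983 units in the channel labelled vector and 1380, 1158, 1114 and 1352 in the channel labelled RapCA, so the raw ranges overlapped. The ratios were 0.14, 0.72, 0.63 and 1.14, a mean of 0.66 ± 0.41 (SD, n = 4; limma adjusted p = 0.0128), above 0 on all arrays, with replicate 1 the lowest and replicate 4 the highest. The call was lost without replicate 2 (0.64, adjusted p = 0.0546) and with median centring (0.49, adjusted p = 0.0648), and the lowest adjusted p over the alternatives was 1.24e-06.

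Cxcl16, the other membrane-anchored chemokine and the ligand of Cxcr6, was too dim to test. One of its 2 probes was never well above background in either channel. The other was so on 2 arrays for the RapCA label and on 3 for the vector label, with signals of 12 to 24 and 16.5 to 39 units. Its ratios were 0.18, -0.10, -0.07 and -0.07, and no test was made.

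Of 28 other ligands of the family that were listed, 26 were on the arrays, 12 of these were above background on no array in either channel, and 8 were tested. Those 8 split into 4 called higher and 4 called lower under the RapCA label, around a median of 0.17 (4 higher, 3 lower and a median of 0.04 when arrays were median-centred). Ccl6, a CC chemokine of rodents, had 678, 566, 639 and 664 units in the channel labelled RapCA and 34.5, 49, 38 and 18 in the channel labelled vector, where it passed background on only 2 arrays. Its ratio was 3.20 ± 0.57, and 5.34 with the scanner software's ratio, which adds no offset. Ccl6 and Ccl17 passed the filter only through the RapCA label, where they are high, so their calls are no support for a rise among the ligands. Ccl17, Ccl9 and Ccl27a, the last with near-identical copies that may share its probe, had ratios of 1.38 ± 0.24, 1.22 ± 0.31 and 0.80 ± 0.42. Ccl17 was dim in the channel labelled vector, at 17 to 34 units and above background on 3 arrays, and had 2.88 with the scanner software's ratio. Cxcl9, which shares the receptor Cxcr3 with Cxcl10 and was picked for mention after its value was seen, fell only slightly, at -0.46 ± 0.16 (limma adjusted p = 0.00949; 0.0634 without replicate 2 and as low as 0.000109 over the alternatives). Its signals were 142 to 290 units in the channel labelled vector and 82.5 to 108 in the channel labelled RapCA.

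Most receptors were near background. All 23 listed were on the arrays, 13 were above background on no array in either channel, among them the Cxcl10 receptor Cxcr3, the Ccl2 receptor Ccr2, the Cxcl1 receptor Cxcr2 and the Cx3cl1 receptor Cx3cr1, and 4 were tested. Ackr3, an atypical receptor that takes up Cxcl12, was higher, at 1.22 ± 0.19 (limma adjusted p = 0.000183), with signals of 2666 to 3894 units in the channel labelled RapCA and 1181 to 2419 in the channel labelled vector. Cxcr4, the signalling receptor of Cxcl12, passed background on every array under the vector label and on none under the RapCA label, where it was at least 1.78-fold lower (measured ratio -0.83 ± 0.16, and -3.69 with the scanner software's ratio). It passed the filter only through the vector label, as did Cxcr6, so neither call supports a fall among the receptors. A second Cxcr4 probe was above background in neither channel. Xcr1 fell, at -0.90 ± 0.27, though a second probe of it was not above background. Cxcr6, the receptor of Cxcl16, was at -0.38 ± 0.15, -1.02 with the scanner software's ratio, and its call was lost without replicate 2, 3 or 4, at -0.38, -0.34 and -0.36.

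Heparan sulphate proteoglycans hold chemokines on the cell surface and in the matrix. Of 9 listed, all were tested; 8 were called higher and 1 lower, around a median of 0.69 (4 higher, 1 lower and a median of 0.48 when arrays were median-centred). Hspg2, or perlecan, rose by 2.62 ± 0.28, and the glypicans Gpc3 and Gpc4 rose by 2.12 ± 0.32 and 1.77 ± 0.08. Gpc1 was the exception, at -0.70 ± 0.31 (-1.21 with median centring). Among proteases that trim or shed chemokines 4 of 7 on the arrays were tested. Mmp3 fell, at -3.33 ± 0.14, and Mmp2 and Mmp14 rose by 1.05 ± 0.23 and 0.96 ± 0.17, Mmp14 without a call under median centring (0.37, adjusted p = 0.131; lowest over the alternatives 7.85e-08). Adam17, which sheds Cx3cl1, was the 1 not called, at -0.03 ± 0.41, and is given after its value was seen. Dpp4, which trims Cxcl10, was above background on no array.

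Genes of the NF-kB pathway did not share a direction. Of 19 tested, 7 were higher, 3 lower and 9 not called, around a median of 0.18 (with median centring 3 higher, 3 lower and -0.14). The inhibitor Nfkbia, itself an NF-kB target and picked for mention after its value was seen, was at 0.11 ± 0.19 and not called (limma adjusted p = 0.424). It was called higher without replicate 1 (0.21, adjusted p = 0.0372), lay below 0 with median centring (-0.14), and had adjusted p-values of 0.0187 to 0.71 over the alternatives. Tnip1 and Bcl3, regulators of NF-kB, and the subunit Relb rose by 1.13 ± 0.23, 0.70 ± 0.31 and 1.00 ± 0.40. Nfkbiz, a nuclear cofactor, fell, at -1.27 ± 0.42. Other NF-kB targets went both ways, with 4 higher and 4 lower of 9 tested (1 and 4 with median centring). The prostaglandin synthase Ptgs2 and the cytokine Il6 fell, at -2.86 ± 0.75 and -1.17 ± 0.29, while the adhesion molecule Vcam1 and the apoptosis inhibitor Birc3 rose by 1.84 ± 0.37 and 0.93 ± 0.27 (Birc3 0.77, adjusted p = 0.121 with median centring, against 8.38e-08 at the lowest). Under the RapCA label Il6 was above background on only 3 arrays, so it passed the filter through the vector label alone, and it had -2.67 with the scanner software's ratio. Traf1, also among the 4 called lower, was above background on only 2 arrays under the RapCA label and likewise passed through the vector label alone. The calls of Il6 and Traf1 are therefore no support for a fall among these targets. The NF-kB inducers Tnf, Il1a and Il1b were above background on no array in either channel.

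Interferon regulators also moved in both directions, and the 4 with the largest ratios are known as interferon-induced genes. Of 19 tested, 6 were lower, 5 higher and 8 not called, around a median of 0.07 (with median centring 5 were lower, the calls higher were lost and the median was -0.24). Among all genes tested 24.9% were lower and 28.9% higher (20.0% and 12.4% with median centring), so these counts alone do not set the list apart. Irf7, a factor that drives Ccl5 and the interferon genes, had 2479 to 3182 units in the channel labelled vector and 172 to 283 in the channel labelled RapCA, a ratio of -2.79 ± 0.55 (limma adjusted p = 7.35e-05). The RNA sensor Ifih1, the nucleic acid sensor Zbp1 and the signal transducer Stat2 fell, at -2.40 ± 0.37, -1.56 ± 0.21 and -1.43 ± 0.36, with -0.94 ± 0.41 for a second Ifih1 probe and -3.02 for Zbp1 with the scanner software's ratio. The receptor chain Ifnar1, also picked after its value was seen, rose by 0.80 ± 0.18 (limma adjusted p = 0.00099; 0.104 with median centring and 5.12e-07 at the lowest). Ifnb1, which encodes interferon beta, was above background on no array in either channel. Among 7 regulators of messenger decay, whose effects on a transcript differ in direction, Zfp36 and Zfp36l1 were higher, at 0.43 ± 0.16 and 0.36 ± 0.24. Elavl1 was lower, at -0.36 ± 0.22. All 3 calls were lost with median centring (adjusted p = 0.265, 0.833 and 0.0839) and without replicate 2, 3 or 4 (0.0513 to 0.208 over the 3 genes), against 3.98e-05, 0.0107 and 3.09e-05 at the lowest. Further probes of Zfp36 and Elavl1 were not called.

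**Figure D4:**
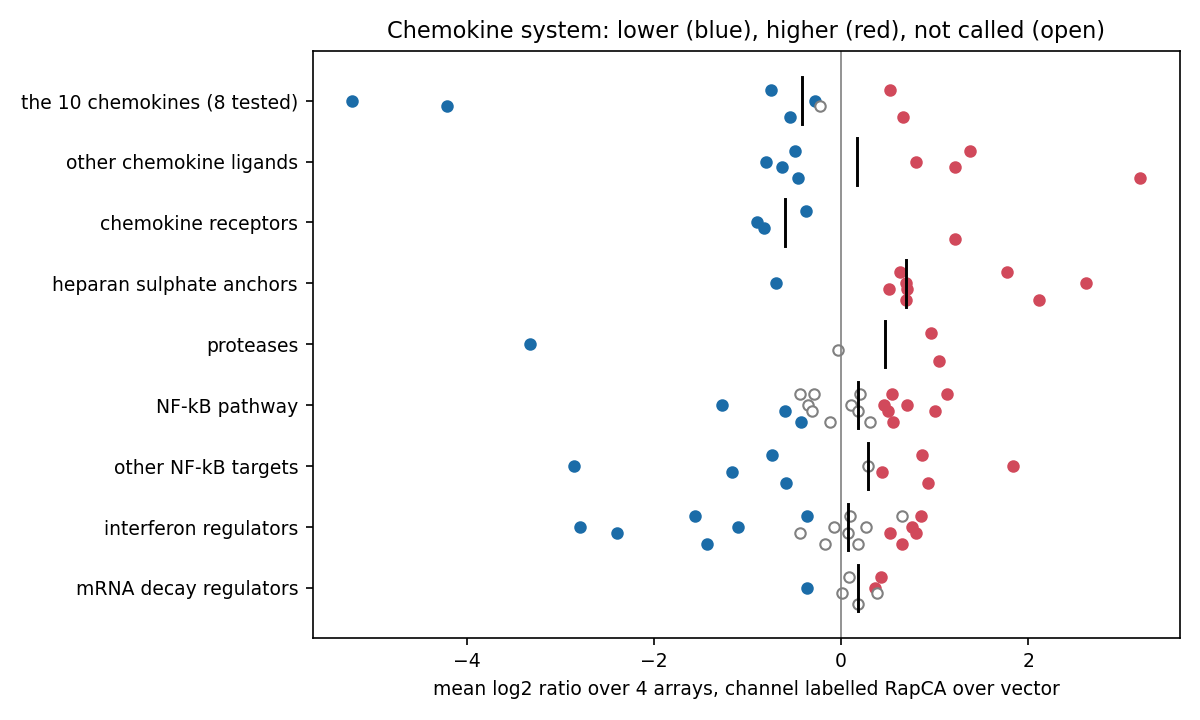
Mean log2 ratio over 4 arrays, RapCA label over vector label, for each tested gene of the chemokine system by its brightest probe, with 1 row for each list and a black line at the list's median. Blue genes were called lower, red higher, and open circles were not called. The 2 interferon-type chemokines stand apart at -5.23 and -4.22, the 9 heparan sulphate anchors have a median of 0.69, and the other lists have members on both sides of 0.

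The labelled cell type was checked against markers. Counts of calls in these lists stand beside 24.9% of all genes tested called lower and 28.9% higher. Of 9 smooth muscle markers 7 were tested and above background on all arrays, while Des and Myocd were above background on none. Of the 7, 4 were called higher and 3 were not called. Myh11, among the latter, was dim, at 26 to 28.5 units under the RapCA label and 31.5 to 37.5 under the vector label. The summed signal of the 9 was 194790 to 277699 units in the channel labelled RapCA and 206601 to 279376 in the channel labelled vector. Fibroblast markers differed more. Of the 8 listed, Lum was above background on no array in either channel. Of 7 tested, 6 were higher and 1, Pdgfra, was not called (0.17 ± 0.64), with a median of 2.29 (1.86 with median centring). Their list had a summed signal of 230005 to 284215 against 76649 to 133402 units. Most of that sum was Col1a1, with 184233 to 238387 against 68504 to 116956 units. Fap, among those called higher, was above background on only 3 arrays under the vector label. It passed the filter through the RapCA label alone, so its call is no support for a rise. The part of the fibroblast markers in the ratios of Cxcl12, the other chemokines and the heparan sulphate proteoglycans was not tested. Of 9 endothelial markers 5 were above background on no array (Pecam1, Cdh5, Tie1, Emcn and Erg), and the list summed to 212 to 271 units against 354 to 1021. Of 3 tested, Vwf and Kdr were lower, at -2.03 ± 0.16 and -0.75 ± 0.40, and Tek was higher, at 1.16 ± 0.23. With median centring 1 was lower and 1 higher. Tek was above background on only 2 arrays under the vector label, so it passed the filter through the RapCA label alone. Of 6 pericyte markers 4 were tested, 3 higher and 1 lower. The lower one, Kcnj8, passed the filter only through the vector label. Both epithelial markers tested, Krt8 and Krt19, were lower, and the list of 5 summed to 512 to 916 units against 1944 to 3082. Krt19 alone had 487 to 880 units against 1744 to 2952. Krt8 was above background on no array under the RapCA label and passed the filter only through the vector label. Its call is therefore no support for a fall. Epcam and Cdh1 were above background on no array in either channel.

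**Figure D5:**
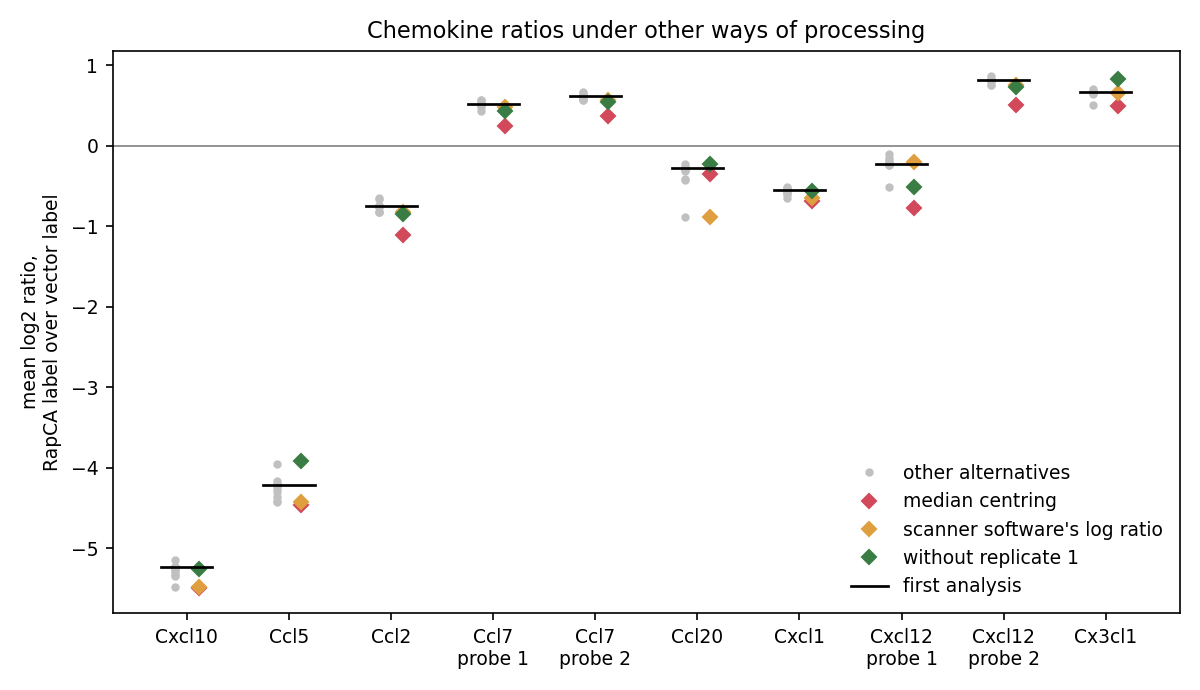
Mean log2 ratio of each tested chemokine probe in the first analysis (black line) and under 17 alternatives (points), with median centring, the scanner software's log ratio and the analysis without replicate 1 in colour. Cxcl10 stays between -5.49 and -5.15 and Ccl5 between -4.47 and -3.92, and each of the 10 probes keeps its sign.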

How the data were processed

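Each of 4 Agilent arrays on 1 slide held total RNA of both groups in different colours. The intensity values are median spot and local background brightness, deposited by the authors in the scanner files without normalization; the deposited log10 values are Cy5 over Cy3 ratios normalized by Agilent Feature Extraction (10.7.3.1 per the file headers, 10.9 per the submitters' processing notes). The flags for spots above background, saturated or marked as outliers are other columns of the deposited scanner files.

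Background was corrected with normexp (offset 50), ratios were fitted by loess within arrays with control spots at weight 0, outlier spots (94 to 137 an array) were dropped, and a probe's spots averaged. A probe was kept if 1 channel or both had it well above background on each of the 4 arrays (23497 of 41174); a probe with several spots counted as above background on an array when at least 0.5 of them were. Mean log2 ratios, with at least 3 arrays a probe, were tested against 0 with limma over all probes, with calls at an adjusted p (Benjamini-Hochberg) below 0.05. The ± values are SDs over arrays. An offset of 50 shrinks the ratios of dim probes. Genes were named by accession (64.8% of probes). The array design is of build mm9 and the RefSeq tables are of GRCm38.p6, so no probe was placed on a gene.

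Members, lists and tests were chosen with earlier results of these data known. Named were all members, Rap1a and, of each pathway list, up to 4 called genes with the largest ratio; exceptions are marked. Protein features had been planned but were not computed. The scripts were tested on simulated data. Alternatives covered background, normalization, filters, variance models, pairing of channels and each array left out. Tools were R 4.3.3 (with limma 3.58.1 and statmod 1.5.0), Python 3.11.15, pandas 2.3.3 and matplotlib 3.10.9.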

Additional observations from a re-analysis of the deposited data

Results flagged for a closer look

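In 5 of the 47 probes of named genes and members, replicate 1 lay far from the other arrays by Dixon's criterion for 4 values, a criterion that chance meets in about 1 of 20 groups. The dim Cxcl16 probe had a log2 ratio of 0.18 on replicate 1 against -0.10 to -0.07 on the others. Nfkbia had -0.16 against 0.18 to 0.25. Nfkbiz and Il6 fell less on replicate 1, at -0.64 and -0.74, against -1.55 to -1.45 and -1.36 to -1.27. Birc3 rose more, at 1.33 against 0.74 to 0.83. The channel labelled vector was also dimmer on replicate 1, and the part of this in the 5 values was not tested.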

How the results depend on the processing

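Of 187 values of member probes and Rap1a under the alternatives, 174 kept their direction and side of the threshold, 11 lost the call, 2 gained it and none turned its sign. With median centring 3 members were called lower and 0 higher, 2624 probes were called higher, and the medians of the NF-kB-type and of the constitutive and membrane-bound members were -0.52 and -0.14, the latter reversed; Nfkbia turned to -0.14, uncalled. The NF-kB-type median was -0.51 with an offset of 16, -0.48 without background correction, -0.73 with the scanner software's ratios, -0.74 with the series value table and -0.28 without a filter on dim probes, where the constitutive and membrane-bound median turned to -0.02 as the dim genes Cxcl5 and Cxcl16 entered. With the mean over a gene's probes the constitutive and membrane-bound median was 0.47. Array quality weights called 8605 probes lower. Leaving out 1 array gave 4 to 6 members lower and 1 to 2 higher, with 3523 to 7664 probes lower (3625 without replicate 2 and 3523 without replicate 3) and 1 member higher without replicate 2. Among all genes these fits called 17% to 34% lower and 21.4% to 37.1% higher. The highest shares were without replicate 1, where 6 members were lower. With median centring of all 4 arrays the shares were 20.0% and 12.4%. Other causes were not tested. The channels of an array are paired; taken as unpaired (no replicate block), 5 members were lower and 2 higher, the same counts as with pairing, against 21.6% and 25.6% of all genes. Ccl20, Cxcl5 and Cxcl16 are limited by signals near background, and 4 arrays limit the precision of every ratio.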
